A study of Mus musculus with 4 samples.

Results

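Glutathione, peroxide and antioxidant enzymes were compared between aged and young satellite cells, the stem cells that lie beside muscle fibres and repair them. The set holds every gene whose symbol in the platform annotation names a glutathione S-transferase of the alpha, kappa, mu, omega, pi, theta or zeta class, a microsomal glutathione transferase, a glutathione peroxidase, a peroxiredoxin, a superoxide dismutase or a thioredoxin reductase, together with Cat, Txn1, Txn2, Gclc, Gclm, Gsr, Nqo1, Hmox1, Srxn1, Nfe2l2, Keap1, Mt1 and Mt2. It comprised 53 of the 18193 genes on the array, read by 95 probe sets. The rule uses gene symbols alone, although the set was drawn up with earlier results of these data known. Another 6 probe sets that the annotation assigns to a gene of the set and to another locus at once, among them those of Prdx1, were left out.

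Aged mice were 20 to 25 months old and young mice 3 to 6 months old, all C57BL/6J and without a genetic or drug treatment named in the labels. Cells of hindlimb muscle were pooled over mice, 6 to 8 per pool in the sample text and 4 to 8 in the series text, and sorted for syndecan-4, a surface proteoglycan that satellite cells carry. Each age had 2 pools and 1 Affymetrix array per pool, and the RNA passed through 2 rounds of linear amplification. The deposited values are taken as log2 (the base is not stated), with each probe set centred on its median over the 4 arrays, so a value says how a pool stood relative to the others, and no gene's level can be set against another's. Xist, the RNA of the inactive X chromosome in females, was higher in aged pools (6.16 ± 0.44), the labels do not give the sex of the mice, and sex and age cannot be told apart here.

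Cells meet superoxide and hydrogen peroxide as by-products of respiration and of oxidase enzymes. Superoxide dismutases turn superoxide into peroxide, which catalase, glutathione peroxidases and peroxiredoxins remove. Glutathione and thioredoxin supply the reducing power, and glutathione S-transferases join glutathione to reactive compounds. Many of these genes are switched on by the transcription factor NRF2, which KEAP1 holds back until oxidants release it, and metallothioneins, small cysteine-rich proteins, bind zinc and copper and also scavenge oxidants. In muscle stem cells the redox state is known to bear on quiescence and activation.

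The regulators act through short DNA elements, and the RefSeq promoters (GRCm38.p6) of the genes that results below turn on are shown first. A window from 250 bases before to 30 bases after the annotated start was held for 47 of the 53 genes, in 61 windows. The core of the antioxidant response element, to which NRF2 binds, was searched as TGACNNNGC on both strands. It occurred in 9 of the 61 windows (14.8%) and in 11.5% of all 32851 windows of this length. The core of the metal response element, through which zinc acts on metallothionein genes, was searched as TGCACNC or TGCGCNC on both strands. It occurred in 17 of the 61 windows (27.9%), against 24.1% of all windows. These windows belong to 15 of the 47 genes, as windows of the same gene can overlap and hold the same match (Gstm1, Gstm4). Only 1.73% of all windows held at least 3 metal response element cores and 0.405% at least 4. The Mt1 window held 3 and the Mt2 window 4. Both are shown because these neighbouring genes stood on opposite sides between ages, with the metal response element cores in capitals, 5′ to 3′ along the gene's strand.
Mt1 (chr8:94178839-94179118, + strand): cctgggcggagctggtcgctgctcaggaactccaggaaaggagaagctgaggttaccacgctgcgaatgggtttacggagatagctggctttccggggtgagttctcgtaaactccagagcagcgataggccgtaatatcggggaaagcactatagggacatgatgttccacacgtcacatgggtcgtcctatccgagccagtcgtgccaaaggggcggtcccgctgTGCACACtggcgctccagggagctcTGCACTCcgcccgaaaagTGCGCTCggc
Mt2 (chr8:94172368-94172647, + strand): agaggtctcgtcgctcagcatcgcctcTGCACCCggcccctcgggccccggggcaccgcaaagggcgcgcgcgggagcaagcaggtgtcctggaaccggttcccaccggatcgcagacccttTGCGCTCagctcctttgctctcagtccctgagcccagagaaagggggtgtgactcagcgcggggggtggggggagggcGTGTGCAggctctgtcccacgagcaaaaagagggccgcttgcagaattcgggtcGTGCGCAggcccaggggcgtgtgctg
The next windows are shown because Gclm stood among the genes higher in aged pools and Gstm5 among those lower, and each carried 1 antioxidant response element core, here in capitals. The match in Gclm lies on the opposite strand and overlaps a core of the metal response element.
Gclm (chr3:122245307-122245586, + strand): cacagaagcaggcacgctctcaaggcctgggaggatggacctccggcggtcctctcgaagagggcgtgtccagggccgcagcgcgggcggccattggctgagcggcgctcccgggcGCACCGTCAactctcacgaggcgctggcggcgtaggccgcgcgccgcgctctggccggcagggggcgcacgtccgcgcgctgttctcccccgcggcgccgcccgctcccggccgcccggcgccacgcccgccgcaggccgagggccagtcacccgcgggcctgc
Gstm5 (chr3:107895604-107895883, + strand): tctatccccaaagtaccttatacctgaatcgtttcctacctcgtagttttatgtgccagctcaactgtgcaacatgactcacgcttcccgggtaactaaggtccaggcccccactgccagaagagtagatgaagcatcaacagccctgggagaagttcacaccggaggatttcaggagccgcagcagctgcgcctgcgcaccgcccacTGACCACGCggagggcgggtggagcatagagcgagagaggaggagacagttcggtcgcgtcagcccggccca
The other matches of the antioxidant core were TGACATTGC in Gsta3, TGACAAAGC in Gstm7 and Txnrd1, TGACCGTGC in Mgst1, TGACTCAGC in Mt2, TGACTCCGC in Nfe2l2 and TGACCACGC in Sod1. These matches describe the letters of a window and no binding.

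Antioxidant genes stood apart between ages in both directions, with a median near 0. In pooled cells, fewer cells of a type and less RNA per cell cannot be told apart, and markers of muscle fibres and immune cells also differed between ages (values at the end). Of the 53 genes, 28 were higher and 25 lower in aged cells, where 46.2% of all genes were lower, and the median log2 difference was 0.08, against 0.05 over all genes. No gene of the set passed an adjusted p of 0.05 in limma, nor did any of the 18193 genes, and the smallest adjusted p in the set was 0.262. At an unadjusted p under 0.05 there were 11 of 53 genes, 4 higher and 7 lower (20.8%), where 9.04% of all genes reached it, 2.85% higher and 6.19% lower. The higher ones were Mt2, Gpx8, Gstt2 and Prdx4, and the lower ones Gstp1, Gpx7, Gstm5, Keap1, Mt1, Cat and Gpx4. The pools of the 2 ages did not overlap for 29 of 53 genes (54.7%), 14 higher and 15 lower, against 36.8% of all genes, 19.9% higher and 16.9% lower. At least 2-fold differences were found in 14 of 53 (26.4%), against 14.6% of all genes. Genes of the set also varied more between pools of 1 age: the root mean square difference was 1.17 between the aged pools and 0.93 between the young pools, against 0.91 and 0.84 over all genes. The count of 11 depends on young pool 1, without which 4 of 53 genes (7.55%) kept an unadjusted p under 0.05, all lower, where 6.62% of all genes did. Without young pool 2 there were 3 higher and 4 lower, where 7.49% of all genes were called. Without aged pool 1 there were 2 higher and 8 lower, 5 of them among the 11, where 9.14% of all genes were called. Without aged pool 2 there were 4 higher and 6 lower, 7 of them among the 11, where 8.51% of all genes were called. Of the 11 genes, Gpx7 had identical values in its 2 aged pools, so a fit without a young pool held no spread of its own. The difference of Gpx7 ran from -3.02 to -1.64 in the fits that left out 1 pool.

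**Figure D1:**
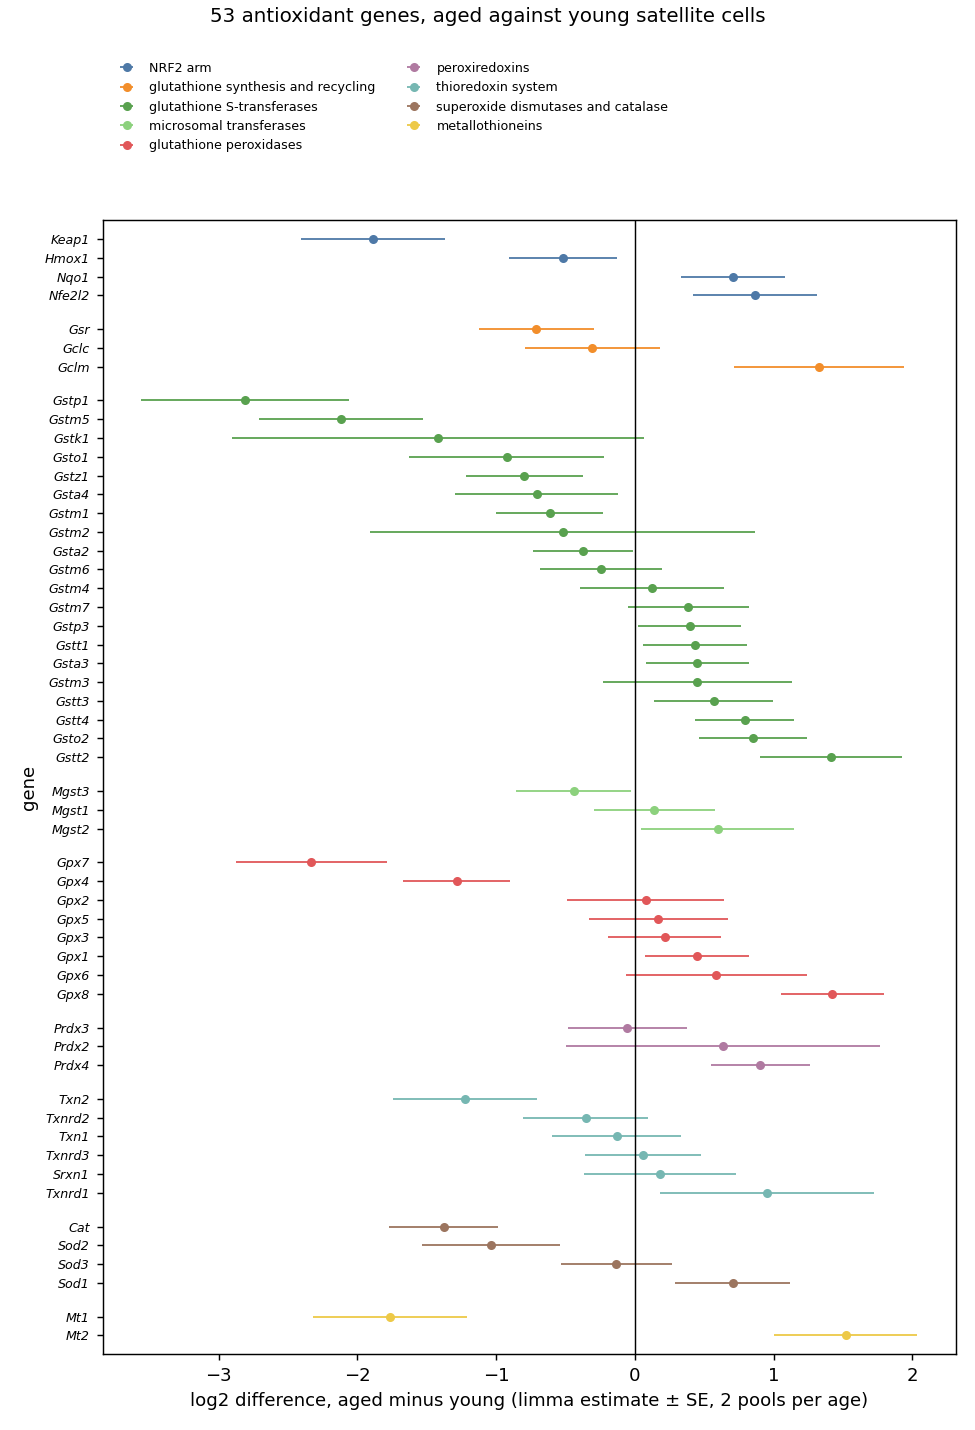
Log2 difference, aged minus young (x axis, limma estimate with its standard error as a bar, 2 pools per age), of each of the 53 genes (y axis), grouped by family and coloured by it. Differences run from -2.81 for Gstp1 to 1.52 for Mt2, and 28 genes lie right of 0.

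The NRF2 arm held 2 genes higher and 2 lower in aged pools. In gene values, averaged over probe sets, the ages overlapped for none of the 4, where 36.8% of all genes did not overlap. Keap1, which holds NRF2 in the cytoplasm for degradation, stood at -0.40 and -1.67 in aged pools, against 0.84 and 0.87 in young pools. Both aged pools lay below both young pools, and the difference was -1.89 ± 0.52 (SE, n = 2 pools per age; 3.70-fold lower; unadjusted p = 0.0126, adjusted p = 0.339 in limma; -1.25 without aged pool 2). The 2 probe sets of Keap1 differed by -3.45 and -0.32, so most of that gap came from 1 of them. In the other the ages overlapped, with 0.59 and -1.24 in aged pools against -0.35 and 0.35 in young pools. Nfe2l2, which encodes NRF2, stood at 0.15 and 0.43 in aged pools and at -1.01 and -0.15 in young pools. The ages overlapped in 1 of its 2 probe sets. Its difference was 0.86 ± 0.45 (unadjusted p = 0.105, adjusted p = 0.684; 0.43 without young pool 1 and 1.30 without young pool 2), with probe sets at 1.55 and 0.18. Nqo1, a quinone reductase and a classical NRF2 target, had a difference of 0.71 ± 0.38, and Hmox1, the haem-degrading oxygenase that NRF2 and the repressor BACH1 both control, one of -0.52 ± 0.39 (-0.31 without young pool 2). Neither Nqo1 nor Hmox1 overlapped between ages, and they lay on opposite sides, with a gap of only 0.14 between the ages for Hmox1.

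Enzymes of glutathione synthesis and recycling lay on both sides. Gclm, the modifier subunit of glutamate-cysteine ligase, which makes the rate-limiting step of glutathione synthesis, stood at 1.81 and 0.14 in aged pools, against -0.26 and -0.44 in young pools. The ages did not overlap, but the aged pools lay further apart than the lower of them lay from young cells, and the difference was 1.33 ± 0.61 (2.51-fold higher, adjusted p = 0.625; 0.50 without aged pool 1 and 2.16 without aged pool 2). The 2 probe sets of Gclm gave 2.05 and 0.61. The former rested on aged pool 1, with 3.44 and -0.03 in aged pools against 0.03 and -0.71 in young pools, so its ages overlapped. Gclc, the catalytic subunit of the same ligase, had a difference of -0.31 ± 0.49 with overlapping ages. Its 2 probe sets opposed each other at -1.20 and 0.58. Gsr, the reductase that regenerates glutathione from its oxidised form, had a difference of -0.71 ± 0.41 with no overlap (-0.37 without aged pool 2).

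The 20 glutathione S-transferase genes were split evenly, 10 higher and 10 lower, with a median of -0.06. Gstp1, the pi class enzyme found in most tissues, had the lowest difference of the set. It stood at -0.76 and -2.93 in aged pools and at 1.16 and 0.76 in young pools. Aged pools lay below young pools, with aged pool 2 far below aged pool 1, and the difference was -2.81 ± 0.75 (7.0-fold lower, unadjusted p = 0.0110, adjusted p = 0.322; -1.72 without aged pool 2 and -3.89 without aged pool 1). Its relative Gstp3 had a difference of 0.40 ± 0.37. One probe set each read Gstp1 and Gstp3, and paralogs of this class are similar enough that a probe set may take up RNA of another.

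All 4 measured genes of the theta class were higher in aged cells. Gstt2 stood at 0.29 and 0.88 in aged pools, against -1.37 and -0.29 in young pools, with no overlap. The difference was 1.41 ± 0.51 (2.66-fold higher, unadjusted p = 0.0353, adjusted p = 0.484; 0.88 without young pool 1). Gstt4 had a difference of 0.79 ± 0.36, Gstt3 of 0.57 ± 0.43 and Gstt1 of 0.44 ± 0.37. The ages overlapped for Gstt3 alone of these 4, where 36.8% of all genes did not overlap. In RefSeq the genes Gstt3, Gstt1, Gstt4 and Gstt2 follow one another with no other coding gene between them. None of the 4 differences passed the adjusted threshold, so the shared direction is a description.

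The mu class genes lie in a similar row (Gstm5, Gstm7, Gstm6, Gstm3, Gstm2, Gstm1, Gstm4, with no other coding gene between them) but differed from one another. Gstm5, at the edge of the row, stood at -0.71 and -0.65 in aged pools and at 2.23 and 0.65 in young pools. Its aged pools lay close together and below the young ones, and the difference was -2.12 ± 0.59 (4.34-fold lower, unadjusted p = 0.0134, adjusted p = 0.345; -1.32 without young pool 1). Gstm1, a mu enzyme abundant in mouse liver, differed by -0.61 ± 0.39 with no overlap. The remaining mu genes overlapped between ages, with differences from -0.52 (Gstm2) to 0.45 (Gstm3). Gstm2 parted by pool number: it stood at 1.11 and -1.11 in aged pools 1 and 2, and at 2.47 and -1.42 in young pools 1 and 2.

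In the other classes no gene reached an unadjusted p of 0.05. Gsto2 had a difference of 0.85 ± 0.39 (adjusted p = 0.622) with no overlap, while Gsto1, its omega class neighbour, differed by -0.92 ± 0.70. Gstz1, which also serves tyrosine breakdown, differed by -0.80 ± 0.42 with no overlap. Gstk1, the mitochondrial and peroxisomal kappa enzyme, rested on 1 pool, with 0.96 and -3.80 in aged pools against 0.35 and -0.35 in young pools. Its difference of -1.42 ± 1.49 turned to 0.96 without aged pool 2. In the alpha class, Gsta4, which clears the lipid peroxidation product 4-hydroxynonenal, differed by -0.71 ± 0.59, Gsta2 by -0.38 ± 0.36 and Gsta3 by 0.45 ± 0.37. The microsomal transferases Mgst1 (0.14 ± 0.44), Mgst2 (0.60 ± 0.55) and Mgst3 (-0.44 ± 0.41) likewise differed by less than 1.5 standard errors.

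Among glutathione peroxidases, a pair with a shared location stood on opposite sides. Gpx7 and Gpx8 both encode peroxidases of the endoplasmic reticulum that lack selenium and take part in oxidative protein folding. Gpx7 stood at -0.82 in either aged pool, against 2.19 and 0.82 in young pools, with no overlap. The difference was -2.33 ± 0.54 (5.03-fold lower, unadjusted p = 0.00611, adjusted p = 0.262; -1.64 without young pool 1 and -3.02 without young pool 2). The aged values were identical in the deposited table, as values of at least 2 arrays were for 2255 of 45101 probe sets, and such ties lower a gene's standard error. Gpx8 stood at 0.93 and 0.58 in aged pools and at -0.76 and -0.58 in young pools. The difference was 1.42 ± 0.37 (2.68-fold higher, unadjusted p = 0.0103, adjusted p = 0.315), with each age's pools closer together than the ages.

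Gpx4, the selenoenzyme that reduces lipid hydroperoxides in membranes and thereby guards against ferroptosis, was lower in both aged pools. It stood at -0.79 and -0.48 there and at 0.44 and 0.85 in young pools. The difference was -1.28 ± 0.39 (2.43-fold lower, unadjusted p = 0.0179, adjusted p = 0.389), and its 2 probe sets were close, at -1.38 and -1.19. The abundant cytosolic enzyme Gpx1 differed by 0.45 ± 0.37 with no overlap. Gpx2, Gpx3, Gpx5 and Gpx6 overlapped between ages, with differences from 0.08 (Gpx2) to 0.59 (Gpx6).

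**Figure D2:**
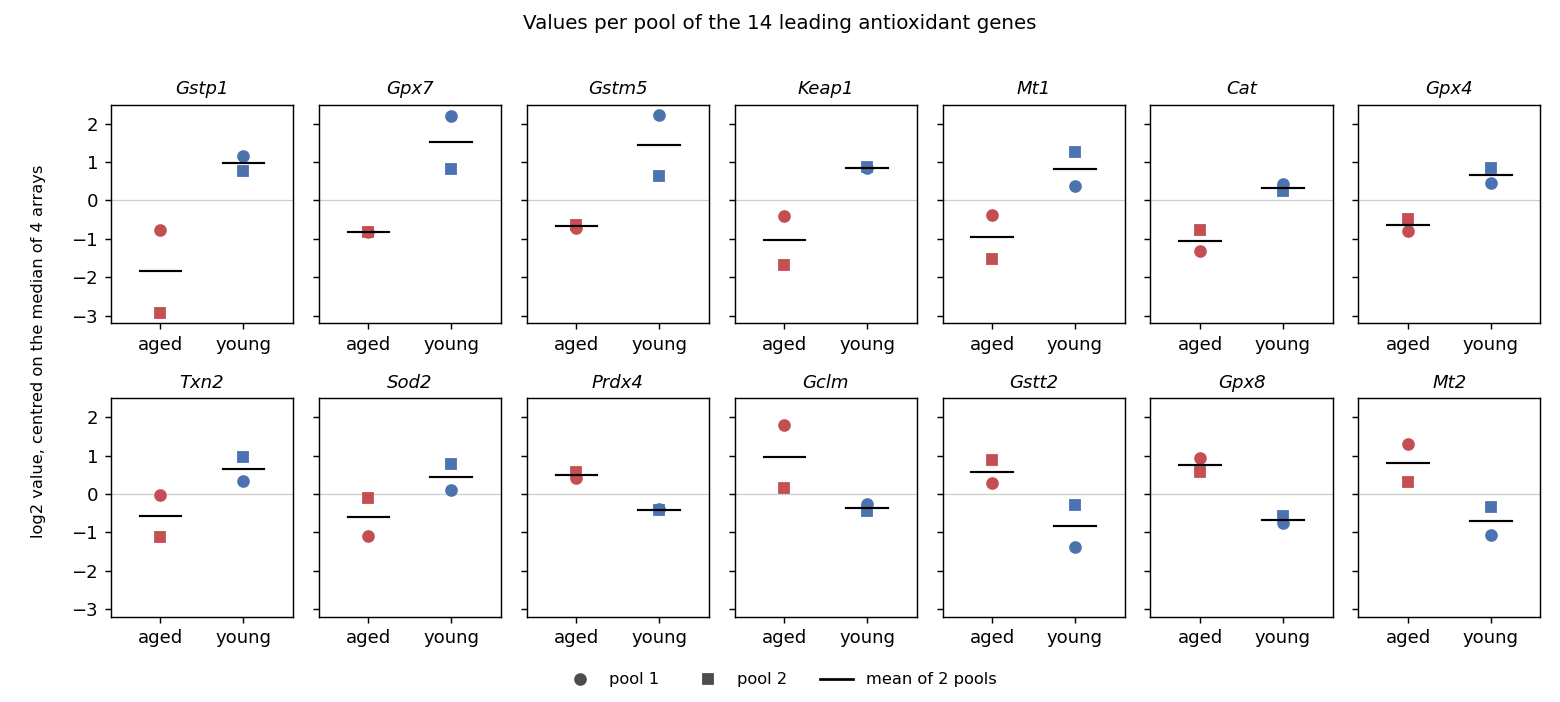
Value in each pool (y axis, log2) of the 14 genes that either had an unadjusted p under 0.05 or had ages at least 2-fold apart and not overlapping. A gene's value is the mean of its probe sets, each centred on its median over the 4 arrays. Circles are pools numbered 1, squares pools numbered 2, red aged, blue young, and lines the mean of 2 pools; the aged pools of Gstp1 lie at -0.76 and -2.93.

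Of the peroxiredoxins, thiol enzymes that reduce peroxide at low concentration, Prdx2, Prdx3 and Prdx4 could be read. Prdx4, the form of the endoplasmic reticulum, lies on the X chromosome, and sex and age cannot be told apart here. It stood at 0.43 and 0.56 in aged pools, against -0.40 and -0.42 in young pools. The pools of each age lay close together, and the difference was 0.90 ± 0.36 (1.87-fold higher, unadjusted p = 0.0473, adjusted p = 0.541). Its 4 probe sets ran from -0.03 to 1.92. Prdx2, abundant in red blood cells, parted by number instead of age, with 1.17 and -0.80 in aged pools 1 and 2 and 1.04 and -1.95 in young pools 1 and 2. Prdx3, the mitochondrial form, differed by -0.05 ± 0.43.

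The thioredoxin system had 3 genes higher and 3 lower, with a median of -0.04. Txn2, the mitochondrial thioredoxin, stood at -0.01 and -1.12 in aged pools and at 0.34 and 0.97 in young pools. The ages did not overlap, although aged pool 1 lay close to the young range, and the difference was -1.22 ± 0.52 (2.33-fold lower, unadjusted p = 0.0602, adjusted p = 0.587; -0.67 without aged pool 2). All 3 of its probe sets were lower in aged cells, at -2.14, -1.29 and -0.24. In that at -2.14 the ages overlapped, with 0.03 and -1.82 in aged pools against -0.03 and 2.52 in young pools. They also overlapped in that at -0.24. Txnrd1, the cytosolic reductase and an NRF2 target, stood at 1.86 and -0.33 in aged pools and at 0.14 and -0.52 in young pools, so 1 aged pool carried its difference of 0.95 ± 0.77. Txn1, Txnrd2, Txnrd3 and Srxn1, the enzyme that restores overoxidised peroxiredoxins, overlapped between ages, with differences from -0.35 to 0.18.

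Catalase and the mitochondrial superoxide dismutase were lower in aged pools, and the cytosolic dismutase was not. Cat, the peroxisomal catalase, stood at -1.32 and -0.78 in aged pools, against 0.42 and 0.24 in young pools. Aged pools lay below young pools by more than the pools of either age differed, and the difference was -1.38 ± 0.39 (2.60-fold lower, unadjusted p = 0.0145, adjusted p = 0.355). The 2 probe sets of Cat gave -2.30 and -0.45. In the latter the ages overlapped, with 0.09 and -0.99 in aged pools against 0.10 and -0.09 in young pools. Sod2, the manganese enzyme of mitochondria, stood at -1.08 and -0.11 in aged pools and at 0.11 and 0.77 in young pools. Its difference was -1.04 ± 0.50 (2.05-fold lower, unadjusted p = 0.0870, adjusted p = 0.645 in limma, and -0.55 without aged pool 1). All 4 probe sets were lower, from -1.96 to -0.56. The ages overlapped in those at -0.56 and -0.71, and in that at -1.96 the aged pools stood at -2.87 and -0.29. Sod1, the copper and zinc enzyme of the cytosol, had a difference of 0.71 ± 0.42 with no overlap of gene values (0.44 without aged pool 1 and 0.46 without young pool 1). All 5 probe sets were higher, from 0.11 to 1.44, but the ages overlapped in those at 0.11, 0.68 and 1.44. The highest rested on aged pool 1, at 3.63 there against -0.76 in aged pool 2. Sod3, the secreted form, differed by -0.13 ± 0.40.

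The neighbouring metallothionein genes opposed each other. Mt2 had the highest difference of the set: it stood at 1.31 and 0.33 in aged pools, against -1.07 and -0.33 in young pools. The ages did not overlap, and the difference was 1.52 ± 0.51 (2.87-fold higher, unadjusted p = 0.0277, adjusted p = 0.449; 1.03 without aged pool 1 and 2.01 without aged pool 2). Mt1 stood at -0.38 and -1.52 in aged pools and at 0.38 and 1.25 in young pools. The difference was -1.77 ± 0.56 (3.40-fold lower, unadjusted p = 0.0213, adjusted p = 0.412; -1.20 without aged pool 2 and -2.34 without aged pool 1). One probe set gave -2.71 with no overlap. The other, of the kind that can match several transcripts (suffix _s_at), gave -0.83 with overlapping ages. Mt2 rested on 1 probe set. The promoters of both genes carry metal response element cores, as printed above.

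Where a gene had several probe sets, their agreement varied. Of the 26 genes with 2 or more, 17 had all probe sets on one side and 9 had some on either side. The 17 include Gstm1, although 1 of its 4 probe sets hardly differed (-6e-08). Among those that reached an unadjusted p of 0.05, the first kind were Keap1, Mt1, Cat and Gpx4, and the second kind was Prdx4. For Keap1, Mt1 and Cat the ages overlapped in 1 probe set each, and for Prdx4 in those at 0.61 and -0.03. Elsewhere, overlap refers to gene values, averaged over probe sets, unless a probe set is named. The other 27 genes rested on 1 probe set, among them Gstp1, Gpx7, Gstm5, Mt2, Gpx8 and Gstt2.

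**Figure D3:**
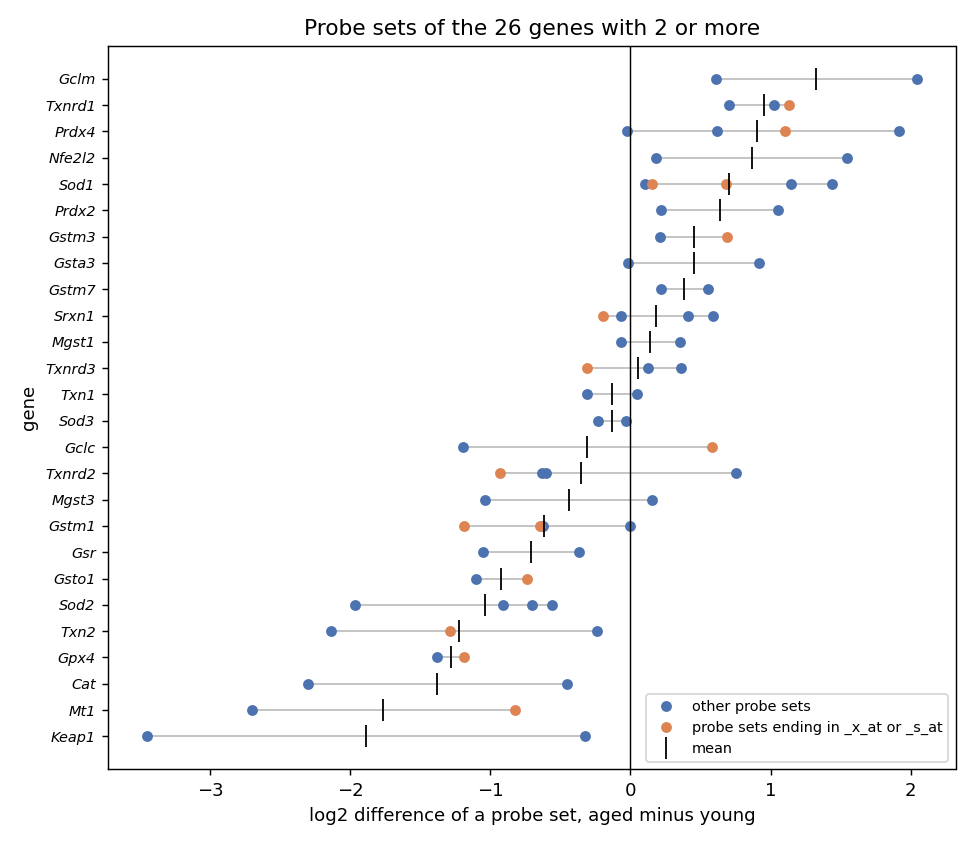
Log2 difference, aged minus young (x axis), of each probe set of the 26 genes with 2 or more (y axis, ordered by their mean, which the black tick marks). Orange points are probe sets ending in _x_at or _s_at, blue points the others; the probe sets of Keap1 lie at -3.45 and -0.32 and those of Gpx4 at -1.38 and -1.19.

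Within pools of the same number, the difference had the same sign for 39 of 53 genes (73.6%), where it had for 56.1% of all genes. The median was 0.09 within number 1 and 0.16 within number 2, against 0.08 and 0.01 over all genes. Sizes differed between the numbers: Mt2 differed by 2.39 within number 1 and 0.65 within number 2, Gclm by 2.07 and 0.59, Keap1 by -1.24 and -2.54, Mt1 by -0.76 and -2.77 and Gstp1 by -1.92 and -3.69. Gpx4 (-1.23 and -1.33) and Prdx4 (0.83 and 0.98) were close in both as means of their probe sets, although single probe sets of Prdx4 were not. For 27 of the 53 genes the pools of at least 1 age lay further apart than the means of the ages.

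**Figure D4:**
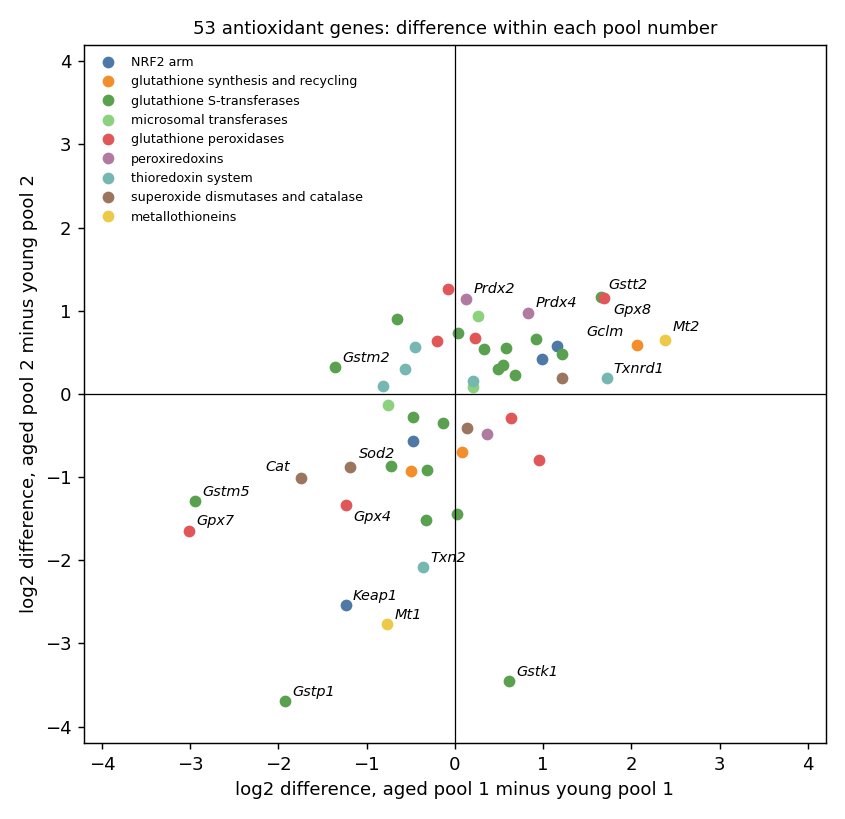
Log2 difference of each of the 53 genes between pools numbered 1 (x axis, aged minus young) and between pools numbered 2 (y axis, aged minus young), coloured by family. Points at the lower left and upper right of the 0 lines have the same sign in both, as 39 of the 53 do; Gstk1, at 0.61 and -3.45, does not.

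Other genes of the same chemistry were read from 6 lists, and none passed the adjusted threshold. At an unadjusted p under 0.05, where 9.04% of all genes stood, the shares were 19.0% for further glutathione handling, 13.0% for further NRF2 targets, 13.3% for partners of NRF2 and KEAP1, 7.69% for sources of superoxide and peroxide, 27.3% for thiol repair and 16.7% for zinc and copper handling. Each list is short, so 1 gene moves its share by several percent. Of 21 further genes of glutathione handling, 1 was higher and 3 lower at an unadjusted p under 0.05, namely Slc3a2, the heavy chain of the cystine transporter (1.65 ± 0.62), Hagh (-2.06 ± 0.42) and Glo1 (-1.04 ± 0.36), the enzymes that use glutathione to clear methylglyoxal, and Oplah, the oxoprolinase of the glutathione cycle (-1.34 ± 0.46). Of 23 further genes listed as NRF2 targets, none was higher and 3 were lower at that p. These were the malic enzyme Me1 (-3.31 ± 0.65), the haem-forming ferrochelatase Fech (-2.20 ± 0.36) and Txnip, which inhibits thioredoxin (-1.01 ± 0.36). The list does not part genes that NRF2 raises from any that it lowers. Among 15 partners of NRF2 and KEAP1, the related factor Nfe2l1 differed by -2.27 ± 0.38 and the small MAF protein Maff by 1.40 ± 0.51.

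Of the 22 genes of thiol repair, 1 was higher and 5 were lower at an unadjusted p under 0.05. The methionine sulfoxide reductases Msrb2 (-2.72 ± 0.49) and Msrb3 (-2.25 ± 0.58) and the muscle selenoprotein Selenow (-1.89 ± 0.36) were lower, and Ccs, the copper chaperone of Sod1, was higher (1.23 ± 0.41). Among 13 sources of superoxide and peroxide, Romo1, a mitochondrial membrane protein, differed by -1.31 ± 0.46 and no other reached that p. Of 12 genes of zinc and copper handling, the zinc transporter Slc30a5 (2.71 ± 0.62) and Mt3 (1.48 ± 0.35), a further metallothionein, were higher. Mt3 rested on 1 probe set whose values were identical in the young pools (-0.72), a tie that lowers its standard error.

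Cell type markers moved with age beside these values. All 24 measured mature fibre markers reached an unadjusted p of 0.05, each lower with age, and their mean value was -1.60 and -1.62 in aged pools against 1.45 and 1.44 in young pools. Macrophage and monocyte markers were lower in 10 of 14, with means of -0.53 and -0.39 in aged pools against 0.44 and 0.27 in young pools. T cell markers were higher in 8 of 8, with means of 1.32 and 0.77 in aged pools against -0.85 and -1.26 in young pools. Of markers of fibro-adipogenic progenitors 11 of 13 were higher, endothelial markers lower in 9 of 11, red blood cell markers higher in 4 of 8 and satellite cell markers higher in 9 of 14. Pax7, which defines satellite cells, stood at 1.08 and 0.90 in aged pools against -1.39 and -1.24 in young pools. Since values are centred, no marker can be called absent from either age. The part of these cell types in the antioxidant differences was not tested.

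**Figure D5:**
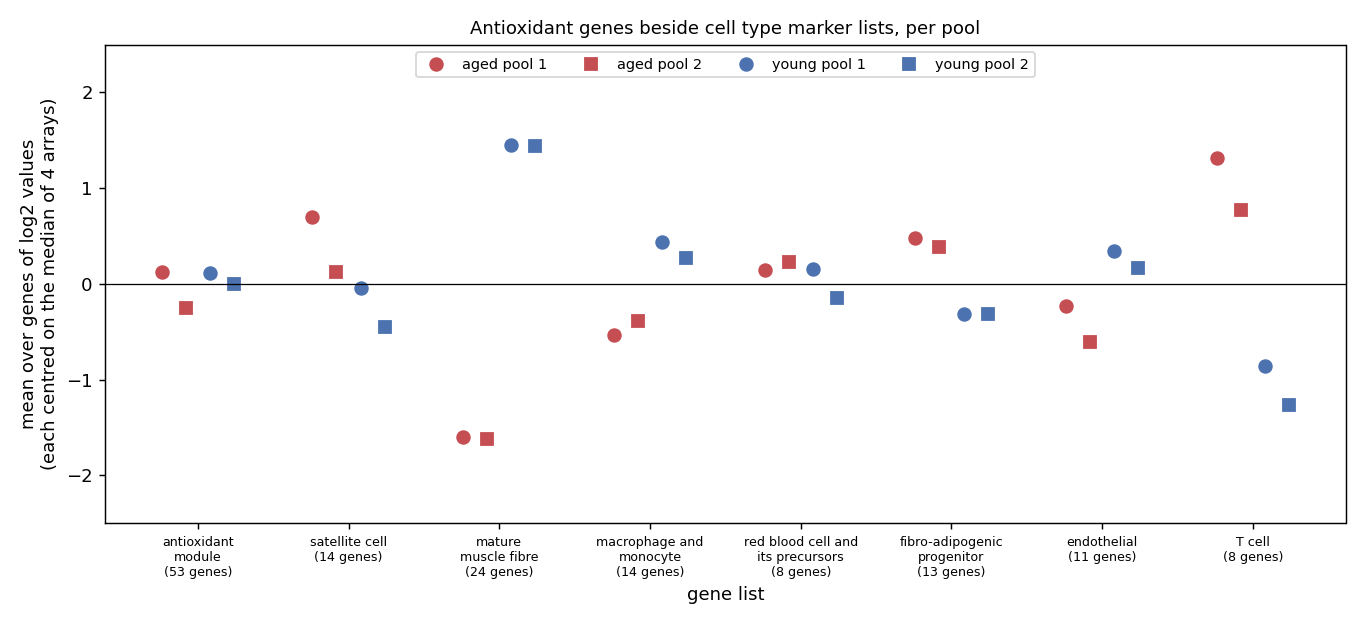
Mean over genes of the log2 values (y axis) of the antioxidant set and of 7 lists of cell type markers (x axis), in each pool (red aged, blue young, circles pool 1, squares pool 2). A gene's value is the mean of its probe sets, each centred on its median over the 4 arrays. Of the 7 marker lists, that of fibres parts the ages most, at about the same value in both pools of an age, while the pools of the antioxidant set lie between -0.25 and 0.12.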

How the data were processed

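Gene expression was measured on Affymetrix arrays in 2 aged and 2 young pools of syndecan-4-sorted satellite cells. The authors deposited 1 table of 45101 probe sets as values taken here as log2, with the 4 values of a probe set centred on their median; background correction, probe summary, normalization and logarithm base are steps that were not given in the sources used here, and another base would change every fold. Probe sets with 1 gene symbol in the platform annotation (34945) were kept, with symbols updated by Entrez ID to RefSeq names, and the probe sets of a gene were averaged. No symbol of the 53 genes changed.

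For the comparison of ages (aged minus young, two-sided), the lmFit and eBayes functions of limma 3.58.1 (R 4.3.3), without a variance trend, were fitted on all 18193 genes with Benjamini-Hochberg adjustment. Errors are standard errors of that fit, with 2 residual and 3.56 prior degrees of freedom. The p-values set the difference between ages against the spread between pools, which the fit moderates toward that of all genes. The number of arrays limits the precision. The fit was tested on simulated data. Genes were named and given values per pool if their unadjusted p was under 0.05 or if the ages were at least 2-fold apart without overlap; other lists were named by an unadjusted p under 0.05, up to 3 per direction. The genes and lists were chosen with earlier results of these data known. Alternatives were quantile normalization, the replicate number as a block, a variance trend, the probe set with the largest SD, omission of probe sets with the suffix _x_at or _s_at, and leaving out each pool. The planned filter on dim genes could not be applied to centred values. Figures were drawn with matplotlib 3.10.9.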

Additional observations from a re-analysis of the deposited data

How the results depend on the processing

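When 1 of the 4 pools was left out, the 4 antioxidant genes higher at an unadjusted p under 0.05 became 0 to 4 and the 7 lower ones 4 to 8, and the genes whose ages do not overlap became 20 to 23 higher and 18 to 21 lower, as fewer pools are compared. The median difference ran from -0.14 to 0.25 for the whole set, -0.18 to 0.12 for glutathione S-transferases, -0.13 to 0.30 for microsomal transferases, -0.35 to 0.91 for peroxiredoxins, -0.87 to -0.26 for superoxide dismutases and catalase, -0.47 to 0.31 for the thioredoxin system, -0.15 to 0.29 for the NRF2 arm, -0.84 to 0.23 for glutathione synthesis and recycling, -0.66 to 0.41 for metallothioneins and 0.0898 to 0.33 for glutathione peroxidases. Signs held under all 9 alternatives for 30 genes. The other 23 changed sign without some pool and in no other setting; their ranges without 1 pool were -0.84 to 0.23 for Gclc, -0.65 to 0.80 for Gpx2, -0.12 to 0.55 for Gpx3, -0.42 to 0.76 for Gpx5, -0.30 to 1.47 for Gpx6, -1.48 to 0.0699 for Gsta4, -3.80 to 0.96 for Gstk1, -2.47 to 1.42 for Gstm2, -0.28 to 1.18 for Gstm3, -0.48 to 0.73 for Gstm4, -0.60 to 0.11 for Gstm6, -0.0338 to 0.80 for Gstm7, -1.87 to 0.0252 for Gsto1, -0.19 to 0.48 for Mgst1, -0.0388 to 1.23 for Mgst2, -0.86 to 2.13 for Prdx2, -0.45 to 0.34 for Prdx3, -0.45 to 0.18 for Sod3, -0.32 to 0.69 for Srxn1, -0.64 to 0.37 for Txn1, -0.14 to 2.05 for Txnrd1, -0.82 to 0.11 for Txnrd2 and -0.26 to 0.37 for Txnrd3. Of the genes whose ages did not overlap, Mgst3 ran from -0.80 to -0.0822, Gstz1 from -1.10 to -0.49, Gstm1 from -0.87 to -0.36, Gpx1 from 0.25 to 0.65, Gsta3 from 0.28 to 0.62, Gstp3 from 0.23 to 0.56 and Gstt1 from 0.25 to 0.62.

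When each gene was read by its most variable probe set (largest SD), the higher count was 2 and the medians were 0.35 for microsomal transferases, -1.0 for superoxide dismutases and catalase and -1.05 for glutathione synthesis and recycling, against 0.14, -0.59 and -0.31 with the mean of the probe sets. With the variance trend, 26 genes of all were called higher and 195 lower at an adjusted p of 0.05, 0 of them in this set. With the replicate number as a block the higher count was 2, and 9 of the 11 genes kept an unadjusted p under 0.05, all but Mt2 (unadjusted p = 0.0570 in limma) and Prdx4 (unadjusted p = 0.0534), where 9.72% of all genes were called. The numbers 1 and 2 pair no animals in the labels; deviations of same-numbered pools correlated at 0.14 over all genes and 0.44 over the 53, across genes that are not independent replicates. The cause of these changes was not tested.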
